A study of Gallus gallus with 8 samples.

Results

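Yolk sac endoderm of chick embryos on day 4 of incubation was compared with the same tissue on day 3. The comparison used 4 of the 8 arrays of a series that covers days 1 to 4, namely those labelled day 4 (2 arrays) and day 3 (2 arrays). Eggs were held at 38 °C in a humid incubator, the yolk sac was dissected, and the endoderm was peeled from the mesoderm after a 5 min dispase digestion. Each sample was a pool of tissue taken at intervals of 4 h across the day, and 5 µg of its total RNA was hybridised to an Affymetrix Chicken Genome Array. All samples shared this handling, and no strain or sex is given for any of them. The 2 samples of a day are called independent in the series' design, yet each is a pool, so p-values measure the spread between pools and not between embryos.

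The yolk sac endoderm is the epithelium through which a bird embryo feeds. Its cells take up yolk lipoproteins by receptor-mediated endocytosis, digest them in lysosomes, and secrete newly assembled lipoproteins and plasma proteins into the vessels of the overlying mesoderm, doing work that the liver and the intestine take over later. Blood islands in that mesoderm supply primitive red cells that carry embryonic globins. Carry-over from the mesoderm would therefore show as collagen, vessel or globin messenger RNA.

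Signals were quantile normalized over the 8 arrays. A probe set met the 2-fold rule when both arrays of one day lay above both arrays of the other day and the mean signals of the days differed at least 2-fold. Of 23063 probe sets bright enough to be tested, 776 (3.36%) met it as higher and 918 (3.98%) as lower on day 4. Differences are otherwise given as day 4 minus day 3 on the scale of log2(signal + 16), which understates the change of dim probe sets. With limma's moderated test across all tested probe sets and Benjamini-Hochberg adjustment, 0 were called higher and 0 lower at an adjusted p of 0.05. At an unadjusted p of 0.05 limma gave 676 (2.93%) higher and 788 (3.42%) lower. The rule is therefore a description of 4 arrays, and what follows gives values without the standing of a test.

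The brightest endoderm markers had high signals on both days. Markers of other cells were bright too, such as the globin HBZ at 8094 and 7026 on day 3. FN1, of the mesoderm list, read 8810 and 9003 on day 3, so brightness alone does not bear out the tissue label. Transferrin (TF) read 10189 and 10687 on the day 4 arrays, against 9859 and 10594 on the day 3 arrays. Apolipoprotein A1 (APOA1), a main protein of secreted lipoproteins, read 9604 and 10451 on day 4, against 9035 and 8534 on day 3. Apolipoprotein B (APOB) went slightly the other way, at 9752 and 9192 on day 4 against 9991 and 9910 on day 3. The 18 endoderm markers summed to 82455 and 74104 on day 4, against 74697 and 73805 on day 3. The brightest of these probe sets lay near the top of the range of signals, so the sum does not measure how much endoderm each pool held.

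The first day 3 array stood apart in 2 ways. By its brighter probe set HINTW, picked after its values were seen and a gene of the female-specific W chromosome of birds, had a signal of 4.99 on it, against 4064 on the second day 3 array and 3270 and 4860 on the day 4 arrays. Of 29 tested probe sets whose genes the RefSeq table places only on the W chromosome, 21 had their lowest signal of all 8 arrays there, or 72.4%, against 11.5% of autosomal probe sets. Z-linked probe sets had a median difference between the first and second day 3 arrays of 0.39, against -0.01 for autosomal ones. The 4.99 lies under the brightness limit of 9.96 used for testing, and the other 7 arrays had signals of at least 3270 by this probe set. A dim second HINTW probe set read 9.71 on that array and 12.4 to 64.2 on the other 7. The labels give no sex, and whether this pool held only male embryos, or whether the array's label is right, was not tested, so what each day 3 mean stands for depends on this array. This array also carried more collagen and vessel RNA, as described further on.

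Differences of W-linked genes between the days therefore followed that array. HNRNPKL, on the W chromosome, read 473 and 427 on day 4, against 1.23 and 411 on day 3, so its place among the largest differences comes from 1 array. HNRNPKL met the rule with 1 of 4 probe sets. Altogether 6 of the 29 W-linked probe sets met the rule as higher (20.7%) and 0 as lower, against 2.91% and 3.76% of autosomal ones. SUCLG2, which encodes a subunit of a mitochondrial enzyme of the citric acid cycle, is on chromosome 12 and had 4 tested probe sets that disagreed. One read 7.94 and 14.5 on day 4, against 4142 and 15.4 on day 3, and met the rule as lower. A second read 6236 and 6435 on day 4, against 7.46 and 6358 on day 3. These 2 differed in opposite directions on the first day 3 array. The remaining 2 did not jump there, at 2187 and 2432 on day 4 against 1594 and 2030 on day 3 for the brighter, and 125 and 58.2 on day 4 against 134 and 141 on day 3 for the dimmer.

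**Figure D1:**
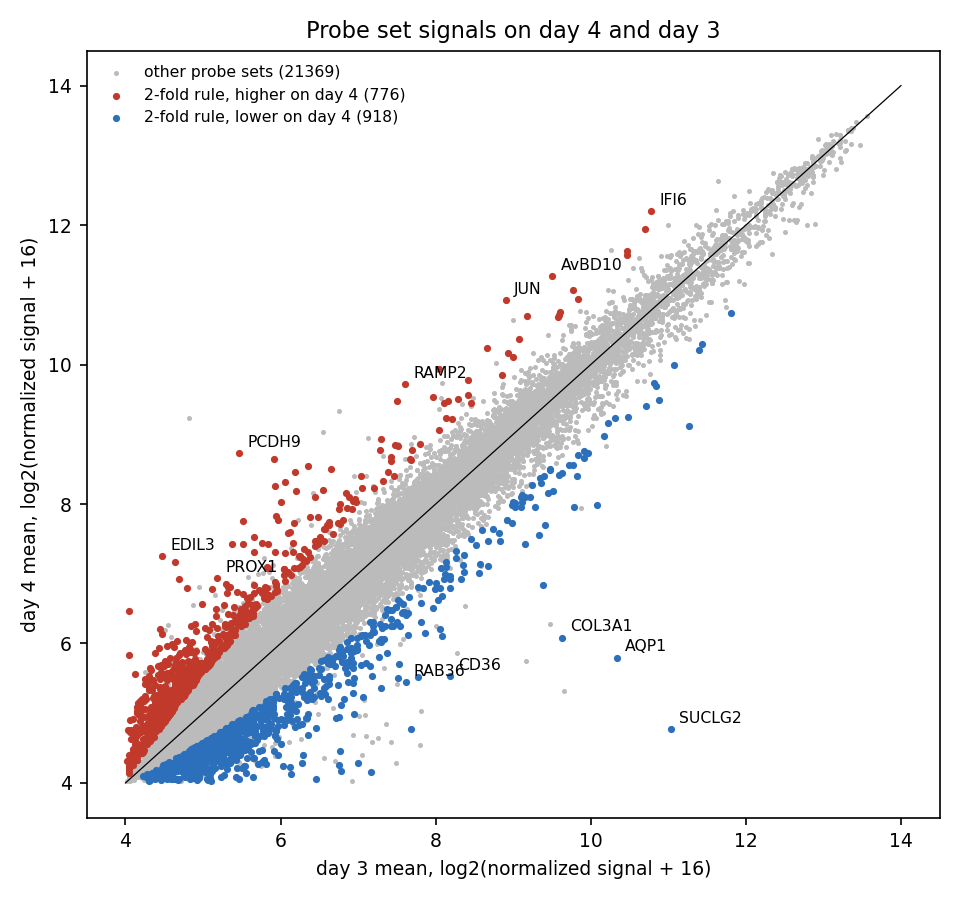
Mean normalized signal of each tested probe set on day 4 (vertical axis) and day 3 (horizontal axis), both as log2(signal + 16), with the line of equal signal. Red points are the 776 probe sets that met the 2-fold rule as higher on day 4 and blue points the 918 that met it as lower, most of them dim, since 125 of the higher and 167 of the lower ones reached a mean of 100 on their brighter day.

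Among immediate early and stress genes, 3 members were higher on day 4 and 1, MYC, was lower. JUN, a subunit of the AP-1 transcription factor, read 1911 and 1943 on day 4, against 501 and 424 on day 3. The difference was 2.03 ± 0.23 (SE), and its adjusted p from limma was 0.112, so it missed the threshold. That value, shared with EDIL3, was the smallest of any probe set that was higher. JUN's nearest arrays of the 2 days were at least 2-fold apart, and it had stayed between 381 and 560 on the 4 arrays of days 1 and 2. KLF6, a zinc finger transcription factor, met the 2-fold rule with 3 of 3 probe sets, and its brightest read 486 and 910 on day 4, against 272 and 266 on day 3. DUSP1, a phosphatase that inactivates MAP kinases, read 645 and 532 on day 4, against 369 and 159 on day 3. In the list of hypoxia, stress and immediate early genes, 3 of 37 measured met the rule as higher and 1 as lower, beside 2.56% and 3.64% of all 10553 genes, each represented by its brightest probe set. These 2 shares are the background for every list count given below. The list's median difference was 0.03, beside 0.00 over all genes.

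Defensins, the small antimicrobial peptides of epithelia, were measured with 7 genes, all on chromosome 3, and the family beyond AvBD9 and AvBD10 was added after values were seen. AvBD10 read 2156 and 2761 on day 4, against 607 and 812 on day 3. Its day 4 mean was 3.47 times the day 3 mean, with a difference of 1.77 ± 0.30 (SE; limma adjusted p = 0.325). AvBD9 read 211 and 278 on day 4, against 56.7 and 39.4 on day 3. At their nearest arrays the days of both genes were more than 2-fold apart, which the rule does not require. AvBD7 went the other way, at 18.5 and 1.09 on day 4 against 112 and 19.1 on day 3, with the high value on the first day 3 array. The other 4 measured genes (AvBD1, AvBD3, AvBD8 and DEFB4A) did not meet the rule. They had mean day 4 signals between 12.3 and 34.8. On day 3 the mean of AvBD10 was 709. That of AvBD9 was 48.0 on day 3, under AvBD7 at 65.5 and DEFB4A at 59.0.

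PCDH9 and EDIL3 had the largest positive differences. PCDH9, a protocadherin of cell contacts, read 459 and 358 on day 4, against 26.4 and 30.1 on day 3, a difference of 3.25 ± 0.71 (SE; limma adjusted p = 0.459). EDIL3, a secreted matrix protein that binds integrins, read 94.2 and 179 on day 4, against 4.43 and 7.82 on day 3, a difference of 2.73 ± 0.31 (SE; limma adjusted p = 0.112). RAMP2, the accessory protein that turns the calcitonin receptor-like receptor into a receptor for adrenomedullin, read 885 and 765 on day 4, against 175 and 181 on day 3. In these genes the nearest arrays of the days were at least 2-fold apart, which the rule does not require. RAMP2 stands on the list of endothelial markers, whose summed signals on both days are given with the vessel genes, and the part of vessel cells in its values was not tested. KRT40, a keratin, read 167 and 257 on day 4, against 34.0 and 57.2 on day 3. PARP6, an ADP-ribosyltransferase, read 63.995 and 52.4 on day 4, against 9.15 and 2.38 on day 3. PCDH9 met the rule with 2 of 3 probe sets and PARP6 with 1 of 2.

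In 5 further genes the second day 4 array was at least 2-fold above the first. VCAN, a large matrix proteoglycan, read 9.27 and 135 on day 4, against 0.51 and 0.40 on day 3. RSPO3, a secreted enhancer of Wnt signalling, read 98.3 and 614 on day 4, against 69.8 and 62.0 on day 3. BPIFCB, of the family of bactericidal and permeability-increasing proteins, read 53.5 and 716 on day 4, against 39.5 and 49.1 on day 3. These 3 genes had first day 4 arrays far nearer to day 3 than the second. ASTL, an astacin-type metalloprotease, read 48.6 and 208 on day 4, against 0.88 and 17.1 on day 3, far under its 1139 and 3257 on day 1. MHCY4, of the chicken's second histocompatibility region, read 81.4 and 231 on day 4, against 1.34 and 49.3 on day 3. RSPO3 met the rule with 1 of 2 probe sets.

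**Figure D2:**
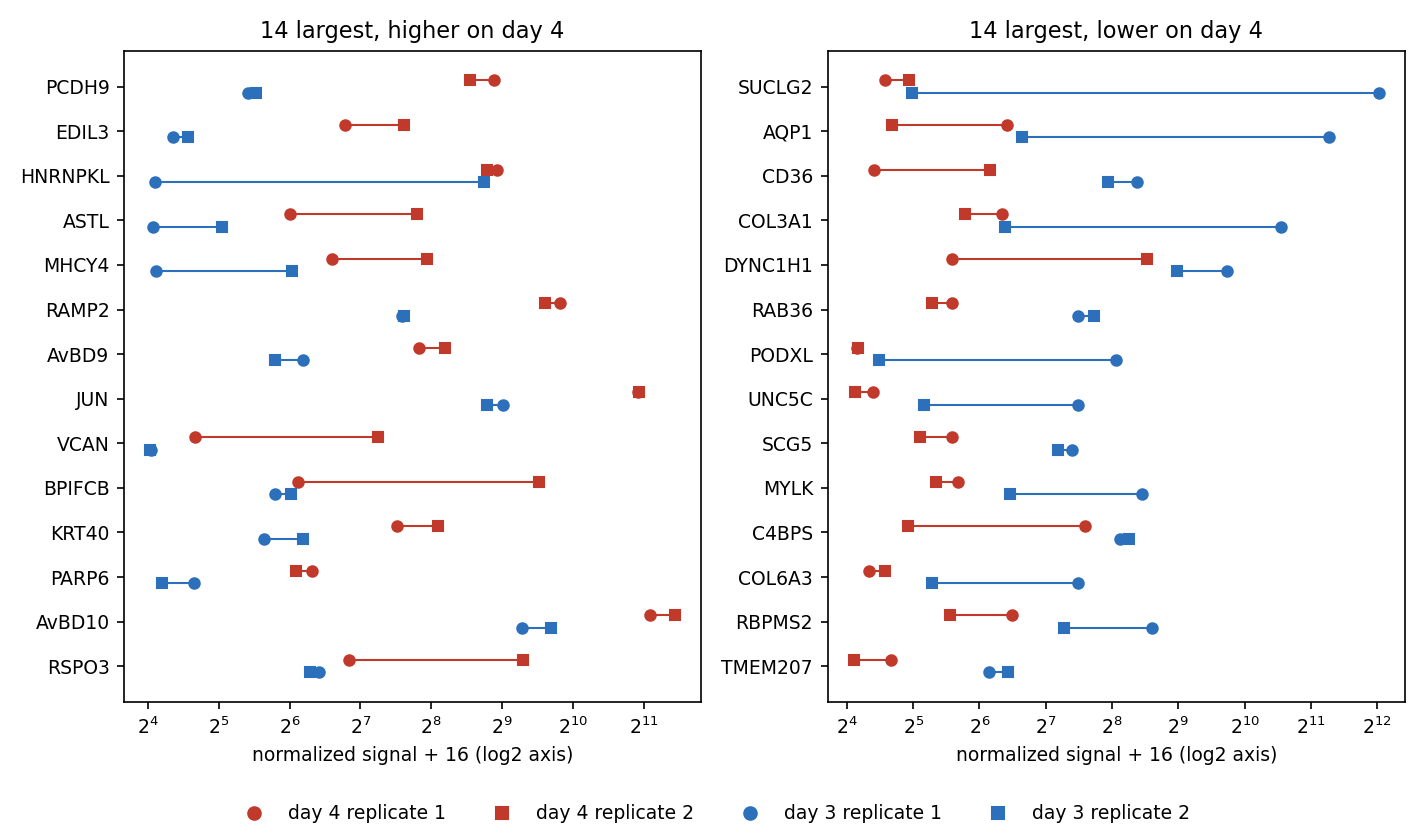
Normalized signal plus 16 (log2 axis) of the 14 genes with the largest positive and the 14 with the largest negative difference among members of the 2-fold rule. Red symbols above are the day 4 arrays, blue symbols below the day 3 arrays, circles replicate 1 and squares replicate 2, and the line joins the arrays of a day; PCDH9, EDIL3, RAMP2, AvBD9, JUN, KRT40 and RAB36 have short lines, whereas AQP1, COL3A1, SUCLG2 and HNRNPKL have long ones on day 3.

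Transcription factors and signals gave a few members each. PROX1, a homeobox factor needed for liver and lymphatic development, read 145 and 68.4 on day 4, against 19.2 and 21.5 on day 3. GATA5, a zinc finger factor of early endoderm, was on the lower side with 2 of 2 probe sets, at 76.5 and 125 on day 4 against 289 and 194 on day 3 for the brighter. PPARG, a nuclear receptor of fat cells, was dim at 9.91 and 18.4 on day 4, against 8.83 and 4.94 on day 3. Over 41 measured transcription factors of endoderm and liver, 2 met the rule as higher and 1 as lower, with a median difference of 0.07. Of 74 measured insulin-like growth factors and secreted signals, 4 met it as higher and 6 as lower, with a median of -0.06. The next 2 genes were picked after their values were seen. IHH, the Indian hedgehog ligand, read 46.9 and 40.7 on day 4, against 10.2 and 12.3 on day 3. WNT5A, a Wnt ligand, met the rule with 3 of 3 probe sets, and its brightest read 317 and 144 on day 4, against 108 and 91.7 on day 3. DKK3, a secreted relative of the Wnt antagonist Dickkopf, was on the lower side, at 88.4 and 155 on day 4 against 377 and 405 on day 3. CFC1 was also lower, at 0.49 and 5.04 on day 4 against 101 and 6.74 on day 3. HHIP, lower with 2 of 2 probe sets, read 5.20 and 3.08 on day 4, against 68.6 and 9.38 on day 3 for the brighter. Both had their high value on the first day 3 array. WNT3A, higher with 1 of 2 probe sets, read 13.2 and 55.4 on day 4, against 6.27 and 1.48 on day 3.

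Interferon and acute phase genes had a positive balance. Of 28 measured, 21 had a positive difference, beside 5323 of all 10553 genes, and the median was 0.26. By the rule 3 were higher (10.7%) and 2 lower (7.14%), beside 2.56% and 3.64% of all genes. IFI6, an interferon-induced protein, read 3284 and 6071 on day 4, against 2364 and 1113 on day 3. SOCS3, an inhibitor that is itself induced by cytokine signalling, read 131 and 181 on day 4, against 30.8 and 51.9 on day 3. On the lower side, avidin (AVD), a biotin-binding protein of egg white, read 31.7 and 44.2 on day 4, against 155 and 51.7 on day 3. SOCS1, a further inhibitor of cytokine signalling, read 1.96 and 16.1 on day 4, against 37.0 and 19.9 on day 3. The list's median was 0.09 without the first day 3 array, and between 0.11 and 0.34 under the other settings.

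Lipid handling gave members on both sides of the comparison. CD36, a scavenger receptor that takes up fatty acids and modified lipoproteins, had 2 of 2 probe sets lower on day 4. Its brighter probe set read 54.7 and 143 on day 4, against 722 and 579 on day 3, a difference of -2.65 ± 0.41 (SE; limma adjusted p = 0.281). Day 3 held the highest CD36 signals of the 4 days. VLDLR, the receptor that takes up very low density lipoprotein, read 423 and 740 on day 4, against 286 and 276 on day 3. STAB1, a scavenger receptor, read 26.8 and 17.8 on day 4, against 8.996 and 5.28 on day 3. These were the 3 members among 23 measured yolk uptake genes, whose median difference was 0.02.

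Genes that activate or carry fatty acids were higher in 2 cases of 37 measured. ACSL1, which joins fatty acids to coenzyme A, met the rule with 2 of 2 probe sets, and the brighter read 516 and 525 on day 4, against 238 and 259 on day 3. FABP3, a fatty acid binding protein, read 95.9 and 296 on day 4, against 58.4 and 54.2 on day 3. The median difference of that list was 0.01. INSIG1, which holds back the activation of cholesterol synthesis genes, read 498 and 923 on day 4, against 415 and 175 on day 3. It met the rule with 2 of 3 probe sets. Of 19 measured cholesterol synthesis genes, 15 had a positive difference, beside 5323 of all 10553 genes. The list's median was 0.20, but INSIG1 alone met the rule. Apolipoprotein, lipoprotein assembly and lipase genes had 0 of 22 members on either side, and fatty acid oxidation had 0 of 33.

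Sugar genes met the rule as higher in 2 of 29 measured (6.9%), beside 2.56% of all genes. SLC2A5, a fructose transporter, read 93.4 and 61.1 on day 4, against 19.6 and 41.2 on day 3. PFKFB3, which makes an activator of glycolysis, read 64.6 and 40.8 on day 4, against 25.4 and 15.9 on day 3. ALDH1A3, which makes retinoic acid, read 438 and 1016 on day 4, against 217 and 251 on day 3. ALDH1A2, which does the same in mesoderm, read 33.0 and 80.2 on day 4, against 15.3 and 12.6 on day 3. The second day 4 array was the higher one for both retinoic acid enzymes. SLC2A5, PFKFB3 and ALDH1A2 each met the rule with 1 of 2 probe sets. Of 75 measured detoxification, retinoid and redox genes, 3 were higher and 6 lower by the rule, with a median of -0.03.

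On the lower side, several members were high on both day 3 arrays. RAB36, a small GTPase of vesicle traffic, read 32.2 and 23.0 on day 4, against 164 and 195 on day 3. Its difference was -2.17 ± 0.28 (SE) with an adjusted p of 0.227 from limma, the smallest among the lower probe sets. SCG5, a chaperone of a prohormone-processing enzyme, read 32.2 and 18.3 on day 4, against 153 and 130 on day 3. TMEM207 read 9.24 and 1.21 on day 4, against 54.5 and 70.5 on day 3. In these genes the nearest arrays of the days were at least 2-fold apart, and day 3 was their highest day. C4BPS, a binding protein of complement C4, read 176 and 14.3 on day 4, against 263 and 288 on day 3. DYNC1H1, the heavy chain of cytoplasmic dynein, read 31.8 and 353 on day 4, against 840 and 490 on day 3, so its day 4 arrays were at least 2-fold apart. Of its 2 probe sets, 1 met the rule.

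Water, ion and calcium handling had 5 of 36 measured genes lower by the rule (13.9%) and 0 higher, beside 3.64% and 2.56% of all genes. The list's median was nevertheless -0.02. One of the 5, AQP1, was high on 1 day 3 array. VDR, the vitamin D receptor, read 113 and 90.6 on day 4, against 209 and 240 on day 3. CALB1, the calcium-binding protein calbindin, read 11.03 and 9.34 on day 4, against 47.1 and 35.0 on day 3. Picked after its values were seen, CYP24A1, which breaks down active vitamin D, read 716 and 453 on day 4, against 1089 and 1433 on day 3. CA13, a carbonic anhydrase, read 54.3 and 26.03 on day 4, against 163 and 113 on day 3. VDR met the rule with 1 of 2 probe sets and CA13 with 1 of 3. The next 3 transport and binding genes, outside the naming rule, were picked after their values were seen. SLC5A12, a sodium-coupled lactate transporter, read 212 and 100.2 on day 4, against 589 and 518 on day 3. SLC31A1, the copper importer, read 679 and 726 on day 4, against 1731 and 2021 on day 3, although 1 of its 6 probe sets met the rule. SELENBP1, a selenium-binding protein, read 114 and 113 on day 4, against 408 and 315 on day 3. Each of these 3 met the rule, which itself requires non-overlapping days.

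Detoxification enzymes and plasma proteins had lower members as well. CYP4A22, a fatty acid hydroxylase, read 175 and 76.0 on day 4, against 377 and 351 on day 3. CYP1A2, a cytochrome P450 of xenobiotic metabolism, read 173 and 37.2 on day 4, against 194 and 414 on day 3. Haemopexin (HPX), the plasma carrier of haem, read 349 and 314 on day 4, against 460 and 1090 on day 3. ITIH5, of the inter-alpha-trypsin inhibitor family, read 34.7 and 20.2 on day 4, against 80.7 and 121 on day 3. F9, the precursor of a clotting protease, read 65.6 and 37.0 on day 4, against 105 and 116 on day 3. Plasma carriers and protease inhibitors gave 2 lower and 0 higher of 20, with a median of -0.07, and clotting factors gave 3 lower and 0 higher of 26, with a median of -0.26. That median was 0.06 without the second day 4 array and -0.48 without the first, where the list had 1 and 7 lower members. Beside F9, its lower members were VWF and TFPI2, an inhibitor of clotting proteases, which read 60.5 and 38.1 on day 4, against 153 and 88.6 on day 3, and both were higher on the first than on the second day 3 array. Complement gave 1 lower, CD55, of 17. CLDN5, a tight junction protein that also marks vessels, read 211 and 193 on day 4, against 584 and 350 on day 3. MME, a membrane peptidase, read 37.0 and 15.3 on day 4, against 96.2 and 64.04 on day 3. CYP1A2 and CLDN5 each met the rule with 1 of 2 probe sets, and MME with 2 of 3. VIL1, a protein of microvilli, was on the other side, at 112 and 224 on day 4 against 48.0 and 103 on day 3.

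**Figure D3:**
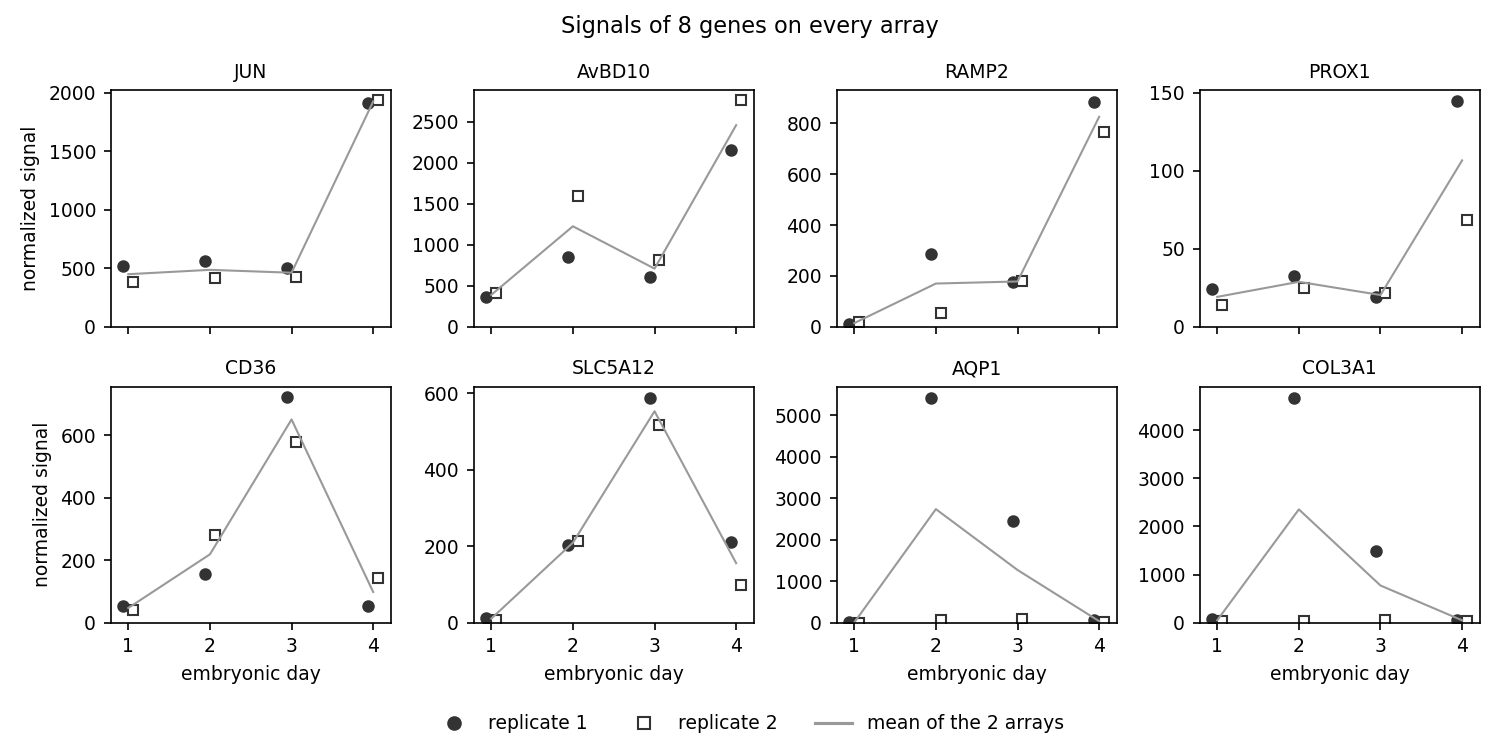
Normalized signal (linear axis from 0) of 8 genes on every array against embryonic day, with filled circles for replicate 1, open squares for replicate 2 and a line through the mean of the 2 arrays of a day. JUN, RAMP2 and PROX1 sit highest on day 4, CD36 and SLC5A12 highest on day 3, and AQP1 and COL3A1 high only on the first arrays of days 2 and 3.

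Many of the largest differences among the lower members were in genes of vessels, mesenchyme and smooth muscle. These were higher on the first than on the second day 3 array. AQP1, a water channel of red cells and endothelium, read 69.6 and 9.58 on day 4, against 2464 and 83.6 on day 3. COL3A1, a fibrillar collagen, read 64.7 and 39.0 on day 4, against 1481 and 67.8 on day 3. It met the rule with 1 of its 5 probe sets. On day 2, AQP1 read 5422 and 56.7 and COL3A1 4672 and 37.4, so the first arrays of both days were the high ones. Likewise PODXL, a sialomucin of vessels and podocytes, read 1.77 and 1.99 on day 4, against 249.9 and 6.39 on day 3. Of its 2 probe sets, 1 met the rule. MYLK, the myosin light chain kinase of smooth muscle, read 35.1 and 24.7 on day 4, against 333 and 71.9 on day 3. UNC5C (a netrin receptor), COL6A3 (a collagen VI chain) and RBPMS2 (an RNA-binding protein of smooth muscle) shared the high first day 3 array. Without that array the differences of these genes were smaller but still negative, as the rule requires. They ran from -1.25 for RBPMS2 and -1.09 for AQP1 to -0.33 for COL3A1 and -0.32 for PODXL. The nearest arrays of the days were at least 2-fold apart in PODXL, MYLK, UNC5C and COL6A3, but not in AQP1, COL3A1 and RBPMS2. In bulk tissue, fewer cells of a type and less RNA per cell cannot be told apart.

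LUM, COL1A1 and CDH5 did not meet the rule, because their arrays overlapped, but showed the same single high array. LUM, the proteoglycan lumican, read 45.7 and 2.03 on day 4, against 1570 and 10.1 on day 3. Picked after their values were seen, COL1A1 read 117 and 5.76 on day 4, against 1324 and 65.1 on day 3, and CDH5, the cadherin of endothelial junctions, read 9.61 and 0.45 on day 4, against 230 and 3.91 on day 3. Of 28 measured mesoderm, mesothelium and smooth muscle markers, 14 were at least 2-fold higher on the first than on the second day 3 array and 0 were the other way, beside 7.93% and 5.15% of all genes. The endothelial list had 11 of 18 and 0. Summed, the mesoderm list gave 9999 and 9324 on day 4, against 16369 and 10030 on day 3, and the endothelial list 1779 and 1377 on day 4, against 2182 and 1094 on day 3. Each sum leans on 1 bright gene. Without FN1, the fibronectin gene, the mesoderm sums were 1189 and 1279 on day 4, against 7559 and 1027 on day 3, so the days overlapped. Without RAMP2 the endothelial sums were 894 and 612 on day 4, against 2007 and 914 on day 3. The nearest of these, 894 on day 4 and 914 on day 3, were barely apart.

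By the rule the mesoderm list had 4 lower and 1 higher, with a median difference of -0.29, and without the first day 3 array that median was 0.01. The endothelial list had 5 lower and 2 higher, with a median of -0.60, or -0.02 without that array. Matrix and adhesion genes, with 7 lower and 1 higher of 70, had a median of -0.13, or 0.01 without it. Among the endothelial markers VWF, a clotting and vessel protein, read 15.3 and 8.09 on day 4, against 119 and 25.7 on day 3, while RAMP2 was higher on day 4. MMP9, a matrix protease, read 1.72 and 1.51 on day 4, against 40.6 and 21.1 on day 3. THY1, a dim member of the mesoderm list, was even on day 3, at 1.22 and 1.45 on day 4 against 22.0 and 23.3 on day 3. HAND2, of the same list, read 2.64 and 2.24 on day 4, against 44.7 and 2.86 on day 3. The part of mesoderm carry-over in these values was not tested.

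**Figure D4:**
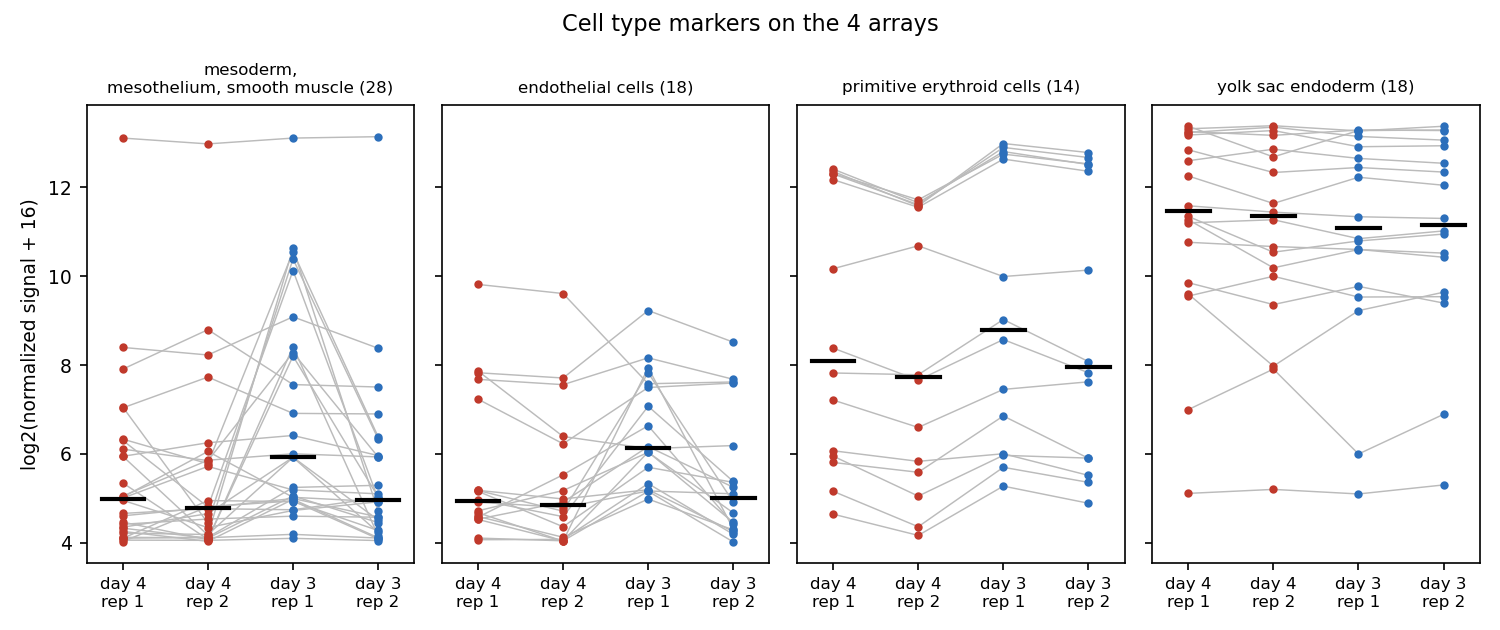
Signals of marker genes on the 4 arrays as log2(signal + 16), one panel for each marker list with the number of measured genes in its title. Points are genes, grey lines join a gene across arrays, red marks day 4 and blue day 3, and black bars are medians; many mesoderm and endothelial markers peak on the first day 3 array, and the brightest red cell markers are lowest on the second day 4 array.

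Embryonic globins were lower on both day 4 arrays without reaching 2-fold. HBZ, an embryonic alpha-type globin, read 5229 and 3050 on day 4, against 8094 and 7026 on day 3. HBE, an embryonic beta-type globin, read 5030 and 3106 on day 4, against 7610 and 6503 on day 3. In the primitive red cell list, 12 of 14 measured markers had a negative difference, beside 5226 of all 10553 genes. In that list 10 lay lower on both day 4 arrays (19.1% of all genes did), and the median was -0.63. Its sum was 27296 and 17893 on day 4, against 38325 and 32399 on day 3. Only TAL1 and GFI1B, 2 transcription factors of blood formation, met the rule, with TAL1 at 19.8 and 4.58 on day 4, against 36.0 and 25.1 on day 3. TAL1 did so with 2 of 3 probe sets and GFI1B with 1 of 2. The median of the red cell list kept its sign when any of the 4 arrays was left out, between -0.92 and -0.33. Leukocyte markers had 1 lower, PTPRC, of 9, ectoderm markers 0 of 11 and neural markers 0 of 9. The leukocyte list summed to 411 and 568 on day 4, against 526 and 527 on day 3. Ectoderm markers summed to 13350 and 14910 on day 4, against 13971 and 14324 on day 3, and the neural list to 93.2 and 163 on day 4, against 125 and 102 on day 3. The ectoderm sum leans on CLDN1, at 6358 and 7761 on day 4, and KRT7, at 6702 and 6795. TP63, the next brightest of that list, read 90.5 and 65.0 on day 4, so the sum does not measure ectoderm.

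The 2 day 4 arrays differed from each other in proliferation genes and in plasma proteins. Of 76 measured cell cycle genes, 42 were at least 2-fold higher on the second day 4 array than on the first and 0 the other way, beside 9.88% and 7.23% of all genes. CDK1, the kinase that drives mitosis, read 181 and 841 on day 4, against 358 and 361 on day 3. MKI67, a marker of dividing cells, read 82.9 and 406 on day 4, against 195 and 77.6 on day 3. These genes were picked after their values were seen, and their day 4 arrays lie on both sides of day 3 or overlap it. The list's median was 0.20, with 2 of 76 meeting the rule as higher, but it was 0.68 without the first day 4 array and -0.36 without the second. Picked in the same way, albumin (ALB), the main plasma protein, ran the other way, at 4619 and 673 on day 4 against 2258 and 929 on day 3. PTGDS, a lipocalin carrier also picked after its values were seen, read 6435 and 1522 on day 4, against 4242 and 2742 on day 3. The median of plasma carriers was -0.60 without the first day 4 array and 0.16 without the second, so the direction of both lists turned with 1 array.

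Basic cell machinery had few members. Cytosolic ribosomal protein genes had 0 of 61 on either side and a median of 0.06, respiratory chain and ATP synthase genes 0 of 52 and -0.12, and lysosomal genes 0 of 50 and -0.07. The brightest ribosomal genes, such as RPS20 at 12110 on all 4 arrays, lay near the top of the range, which limits a 2-fold rise. Smaller shifts escape the rule. Of the ribosomal genes 37.7% were higher on both day 4 arrays, beside 18.3% of all genes. Of the respiratory chain genes 42.3%, and of the lysosomal genes 36%, were lower on both, beside 19.1% of all genes. Endoplasmic reticulum genes gave 1 higher and 2 lower of 70. The higher one, EIF2AK3, a kinase that slows translation when proteins misfold, read 59.7 and 38.9 on day 4, against 16.3 and 20.6 on day 3. Of the lower ones, KDELR3 read 36.6 and 35.4 on day 4, against 97.3 and 69.9 on day 3. ERO1B, lower with 1 of 2 probe sets, read 21.5 and 18.3 on day 4, against 56.8 and 30.9 on day 3. Of the 70 genes 47 had a negative difference, beside 5226 of all 10553 genes. Absorptive transporters gave 1 higher and 2 lower of 43, brush border genes 1 and 2 of 25, urea cycle and amino acid catabolism 1 and 1 of 50, fatty acid synthesis 1 and 1 of 20, and gluconeogenesis and glycogen 1 and 0 of 20. Endoderm markers themselves gave 1 higher and 0 lower of 18, at a median of 0.15, or -0.02 with the mean of each gene's probe sets. Without scaling between arrays the median over all genes was -0.14, against 0.00 in the quantile-normalized data. Relative to that shift, the ribosomal list stood at 0.13, the endoderm list at 0.14, the cholesterol list at 0.20 and the interferon list at 0.26. Other lists stood below it, among them red cells at -0.64, endothelial cells at -0.46, complement at -0.28, clotting at -0.25 and the respiratory chain at -0.19. Across the 33 lists, the median kept its sign in 13 and turned in 20 when each of the 4 arrays was left out in turn.

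**Figure D5:**
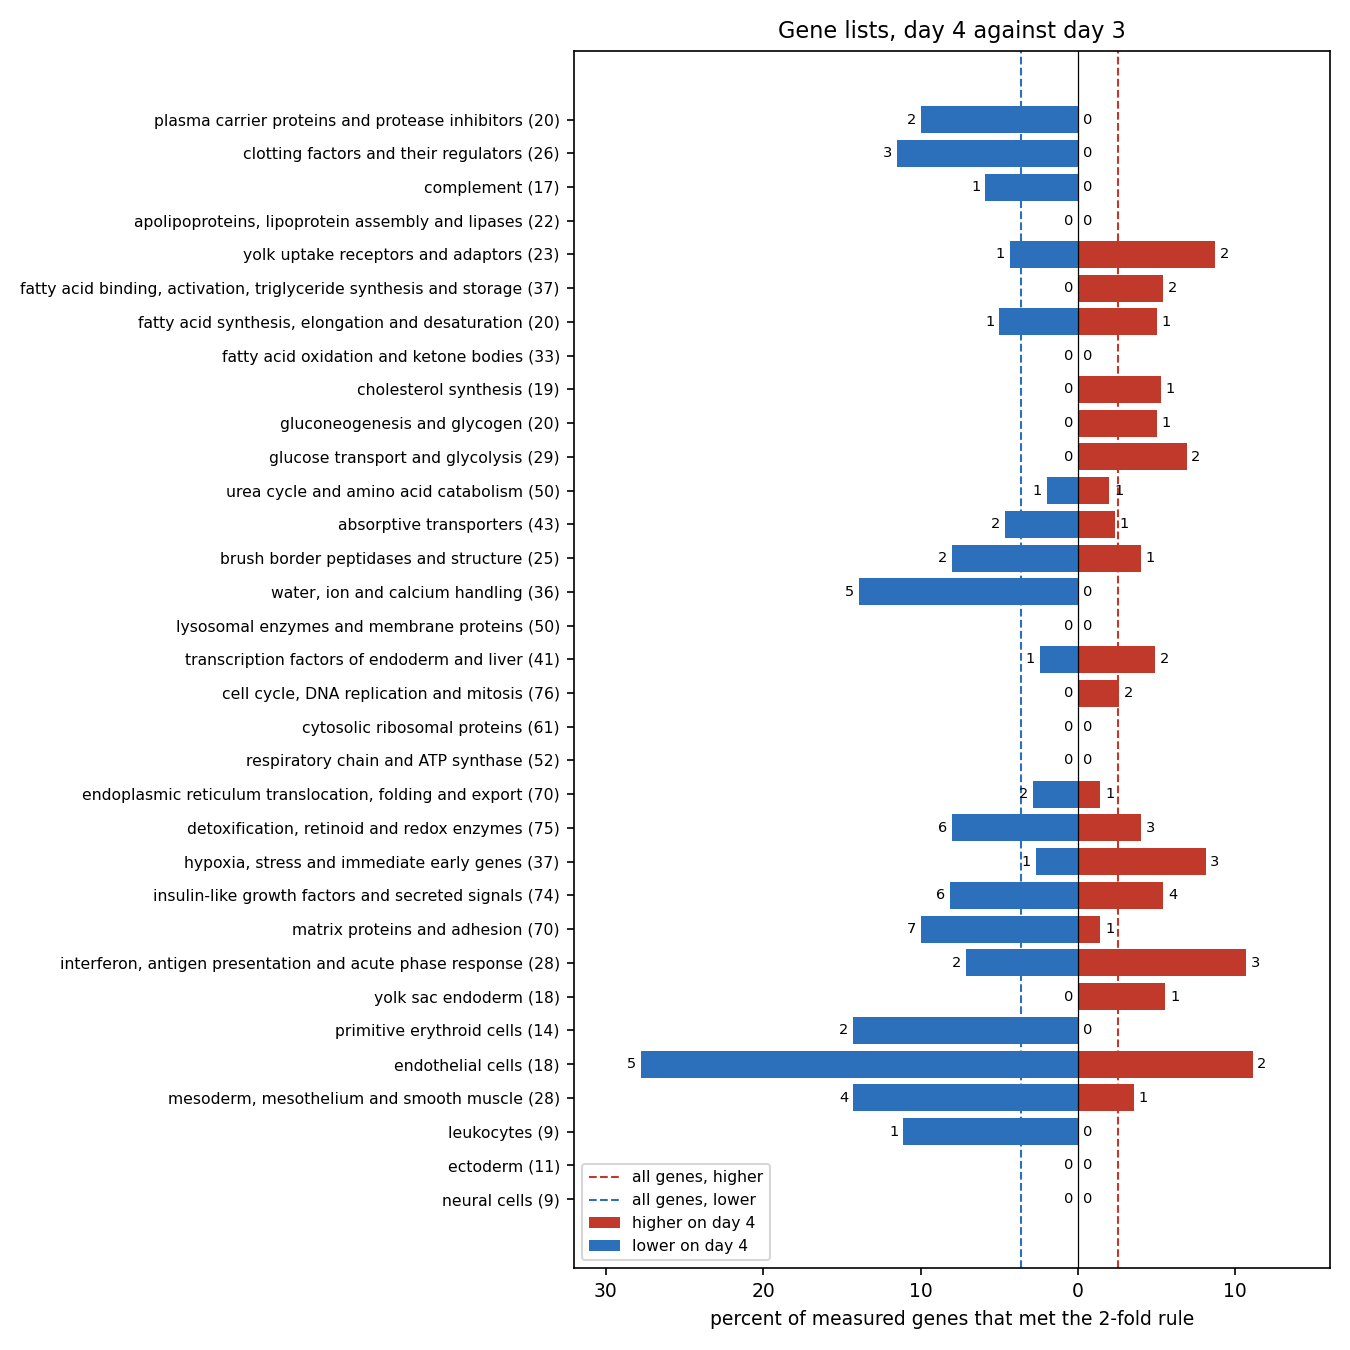
Share of measured genes in each list that met the 2-fold rule as higher (red, to the right) or lower (blue, to the left) on day 4, in percent, with the number of genes beside each bar and the number measured in parentheses. Dashed lines mark the shares over all 10553 genes, 2.56% higher and 3.64% lower; the endothelial list, with 5 lower and 2 higher of 18, has the longest bar.

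The counts depended on scaling. Without scaling between arrays, 389 probe sets met the rule as higher and 1506 as lower, against 776 and 918, and the median difference over tested probe sets was -0.13, against 0.01 after quantile normalization. All 389 were among the 776, and all 918 lower ones were among the 1506. At the edge of the rule, TRIM65 was just inside at 2.00-fold higher and RDH10 just outside at 1.99-fold. ENTPD5 was just inside at 2.01-fold lower. Members with the nearest arrays of the 2 days at least 2-fold apart numbered 195 higher (0.846%) and 269 lower (1.17%), an alternative chosen after the data were seen. Over genes by their brightest probe set the same setting gave 73 higher (0.692%) and 118 lower (1.12%). Without the brightness filter 2750 of 38439 probe sets were higher (7.15%) and 2735 lower (7.12%). Without the first day 3 array, 616 of the 776 higher members (79.4%) and 696 of the 918 lower members (75.8%) kept the 2-fold ratio. They were among 1662 and 1217 probe sets that met the rule with 1 array fewer. Members cannot lose their separation when an array is left out, so only the ratio could fail. The 2 shares are therefore no support for the members.

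Earlier steps of the series gave more members by the same rule. From day 1 to day 2 it gave 2321 higher (10.1%) and 1908 lower (8.27%) on day 2, and from day 2 to day 3 it gave 1123 higher (4.87%) and 1364 lower (5.91%) on day 3. The steps share arrays with each other, and their difference in number was not tested.

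The members' course over the earlier days was read from arrays that the rule did not use. Between day 2 and day 1, limma called 862 (3.74%) of tested probe sets higher and 496 (2.15%) lower. Of the 776 members higher on day 4, 5 (0.644%) were called higher on day 2 and 50 (6.44%) lower. ASTL was one of the latter, at 27.8 and 16.7 on day 2 against 1139 and 3257 on day 1 (difference -5.68 ± 0.65 (SE), limma adjusted p = 0.00227). WNT5A was called lower with all 3 probe sets. Of the 918 members lower on day 4, 60 (6.54%) were called higher on day 2 and 15 (1.63%) lower. CYP24A1, SLC5A12, CALB1, CD36 (brighter probe set) and HPX were among those called higher, and GATA5 among those called lower. The 4 days shared 1 normalization, 1 brightness filter and 1 estimate of the spread. A probe set dim on days 3 and 4 could pass that filter through a high day 1 or day 2 signal. The shares are therefore no independent support for the members. Leaving out any one array of days 1 or 2 kept the share called lower among the day 4 higher members above that of all probe sets. Among the lower members the share called higher was also above that of all probe sets each time. The share called lower among them was less steady. It was below that of all probe sets with every array kept, and above it without the first day 2 array. Probe sets that passed the filter through a high day 1 or day 2 signal stay in these fits. Each fit also leaves 1 array in a day. The fits are therefore no independent support for the members either.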

How the data were processed

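Total RNA from 8 pools of yolk sac endoderm was measured, 2 for each of days 1 to 4. The deposited values are linear signal intensities, 1 per probe set and array, made with MAS5 per the submitters' processing notes; its scaling target and version were not stated there. Of 38535 probe sets, 96 controls were dropped. The remaining 38439 were quantile normalized over the 8 arrays and taken to log2(signal + 16). Probe sets whose mean deposited signal over the 8 arrays was above the 40th percentile (9.96) were tested, which left 23063. GEO's platform annotation gave 1 gene symbol to 27168 of the 38439, several to 177 and none to 11094, and a gene is represented by its brightest tested probe set. The RefSeq table (assembly GRCg7b) matched 26853 symbols and gave chromosomes only.

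Testing used limma (version 3.58.1, under R 4.3.3), with 1 fit to all 8 arrays, an intensity trend (residual degrees of freedom 4, prior 4.67) and Benjamini-Hochberg adjustment over all 23063, and with the 2-fold rule on quantile-normalized signals. With 2 arrays a day, their number limits the precision. Pearson's r between the arrays of a day, across probe sets, was 0.956 for day 4 and 0.964 for day 3. On the log scale, 1540 tested probe sets (6.68%) were at least 2-fold apart between the 2 day 4 arrays. Between the 2 day 3 arrays 966 (4.19%) were. With a difference of at least 1 on that scale in place of the ratio, 165 probe sets met the rule as higher and 262 as lower. The rule also requires the days not to overlap, so the counts within and between days are not matched. The ratio of 3′ to 5′ actin signal was 4.30 and 3.22 on day 4, against 2.63 and 3.36 on day 3. Genes named were the 14 largest differences each way among members with 1 symbol, and a part of those given by the lists. Each gene list gave up to 4 members (otherwise its 2 brightest genes), and each marker list its 3 brightest genes plus at most 3 members. Any other gene is marked as picked after its values were seen, is next to the rule's threshold, or was called by limma with an array left out. The members and lists were chosen with earlier results of these data known. Alternatives were other scalings, pseudocounts, filters, folds and fits, a replicate block and leaving out each array. The plots come from matplotlib 3.10.9 (Python 3.11.15).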

Additional observations from a re-analysis of the deposited data

How the results depend on the processing

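The count of probe sets called by limma stayed at 0 in both directions under every other scaling, pseudocount, filter and fit tried, but not when arrays were left out. It ranged from 0 to 7 higher and from 0 to 5 lower, with 7 and 1 without the second day 3 array, and 1 and 5 without the first day 4 array. The calls without the second day 3 array were led by HINTW, HNRNPKL and SUCLG2, and those without the first day 4 array were EDIL3 higher and ATP6V1G3, C4BPS, ETNPPL, SDC2 and IGSF10 lower. The lone array left in a day is there assumed to vary like the other days. The 2-fold rule gave 389 higher and 1506 lower without scaling between arrays, 2750 and 2735 without the brightness filter, 296 and 368 with a filter at the 60th percentile, 165 and 262 with a difference of at least 1 on the log scale in place of the ratio, 251 and 371 with a 3-fold ratio, and 195 and 269 with the nearest arrays at least 2-fold apart, the last chosen after the data were seen. Leaving out an array gave 1104 to 1662 higher and 1217 to 2137 lower, since 1 array fewer has to lie apart. For day 2 over day 1, no scaling gave 1 called higher (0.129%) and 89 called lower (11.5%) among the members higher on day 4. Among those lower on day 4 it gave 39 (4.25%) and 34 (3.7%), beside 1.61% and 3.73% of all probe sets. Leaving out an array gave 0 to 12, 5 to 47, 9 to 56 and 3 to 45 in the same order. Over all probe sets the shares then ran from 0.898% to 4.43% higher and from 0.178% to 3.66% lower. Signals near the floor limit what dim probe sets can show.

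The arrays of day 4 and day 3 that share a replicate number did not deviate together (correlation of deviations -0.068 across probe sets). Over the other pairs of days the correlation ran from -0.114 for days 1 and 2 to 0.38 for days 2 and 3, so the numbers were not taken as pairs. With the replicate number as a block, limma called 0 higher and 0 lower on day 4. The counts for day 2 over day 1 were 5, 42, 59 and 13, beside 3.31% higher and 1.53% lower of all probe sets. With the day 1 numbers crossed, a block added after the data were seen, the counts were 8, 46, 59 and 13. All probe sets then gave 3.64% higher and 1.89% lower.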
